A study of Mus musculus with 12 samples.

Results

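The genes described here were ligands of the transforming growth factor beta (TGF-beta) and bone morphogenetic protein (BMP) pathways together with direct targets of those pathways. They were the 10 rows of the expression table named Tgfb1, Tgfb2, Tgfb3, Bmp4, Bmp7, Id1, Id2, Id3, Id4 and Smad7, of 24674 genes in all. RNA was measured in organoids, small 3-dimensional cultures grown in a gel from basal epithelial cells that had been sorted from the prostates of adult wild-type C57BL/6 mice. Organoids received vehicle, UK5099 (an inhibitor of the mitochondrial pyruvate carrier), butyrate (a short-chain fatty acid that inhibits histone deacetylases) or UK5099 + Butyrate, called the combination below, with 3 replicates in each of the 4 groups. The comparisons asked how blocking pyruvate entry into mitochondria, butyrate, and both together changed the transcriptome of cells of basal origin. The labels do not say whether replicates came from separate mice, so p-values measure the spread between these samples, which may be technical. All cells were wild type, and the culture followed a published protocol whose mouse prostate medium contains noggin, a BMP antagonist, and an inhibitor of a TGF-beta receptor kinase.

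TGF-beta and BMP ligands are secreted proteins of one superfamily. They bind pairs of serine/threonine kinase receptors, and the receptors phosphorylate Smad proteins that enter the nucleus with Smad4: TGF-beta and activin act mainly through Smad2 and Smad3, and BMPs through Smad1, Smad5 and Smad9. TGF-beta restrains the growth of epithelial cells in the prostate, and BMP4 and BMP7 limit budding and branching of the gland as it develops. The Id genes are classical targets of BMP signalling. They encode helix-loop-helix proteins without a DNA-binding domain, which capture E proteins and so keep them off DNA. Smad7 is an inhibitory Smad whose transcription is raised by TGF-beta and BMP signals and which blocks their receptors.

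The 4 Id genes share the part of their coding sequence that encodes the helix-loop-helix domain. The stretch below is the 60 bases of coding sequence, in frame and without gaps, where the other Id genes together were most like Id1. It lies in exon 1 and is shown because reads from so similar a family could be assigned to the wrong member. Sequences are from GENCODE transcripts on GRCm38, at chr2:152736587-152736646 (plus strand) for Id1, chr12:25095774-25095833 (minus strand) for Id2, chr4:136144071-136144130 (plus strand) for Id3 and chr13:48261762-48261821 (plus strand) for Id4. Capitals mark the 42 of 60 bases that all 4 genes have in common.
Id1: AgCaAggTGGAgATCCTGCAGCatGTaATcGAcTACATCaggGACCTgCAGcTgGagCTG
Id2: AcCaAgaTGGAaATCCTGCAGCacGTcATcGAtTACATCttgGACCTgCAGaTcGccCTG
Id3: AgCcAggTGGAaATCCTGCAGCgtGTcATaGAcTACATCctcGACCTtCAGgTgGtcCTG
Id4: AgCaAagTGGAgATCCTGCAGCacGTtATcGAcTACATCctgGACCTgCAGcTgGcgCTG
Id1 and Id4 were most alike here, with 90.0% identity, and Id2 and Id3 least, with 78.3%. As the stretch was chosen by likeness to Id1, this order of pairs depends in part on that choice. Over the whole transcripts, no stretch of 50 bases was shared between any of the 10 genes. Stretches shared with genes outside the set covered 8.79% of Tgfb3, all of them shared with Gm37804 and Gm48008, 2.18% of Bmp4, 2.08% of Id4, and under 1% of the other 7 genes.

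Values are TPM, transcript abundances scaled to the same total in every sample, as deposited. These had been scaled by the genomic span of a gene, introns included, so levels are compared between genes only after rescaling to exonic length. On that scale the order of the mean levels in vehicle was Tgfb1 at 115 ± 0.718 TPM, Bmp7 at 47.5 ± 1.14, Id2 at 39.9 ± 0.698, Smad7 at 31.6 ± 1.41, Tgfb3 at 28.4 ± 1.51, Id3 at 12.4 ± 0.216, Id1 at 12.1 ± 0.516, Tgfb2 at 2.21 ± 0.0634, Id4 at 1.98 ± 0.173 and Bmp4 at 0.332 ± 0.0946 (SD, n = 3). The replicates of Id3 and Id1 overlapped, and those of the other neighbours in this order did not. Tgfb1 was thus the main TGF-beta ligand transcript of these organoids and Bmp4 was close to the limit of measurement, with 6 to 14 fragments per vehicle sample.

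**Figure D1:**
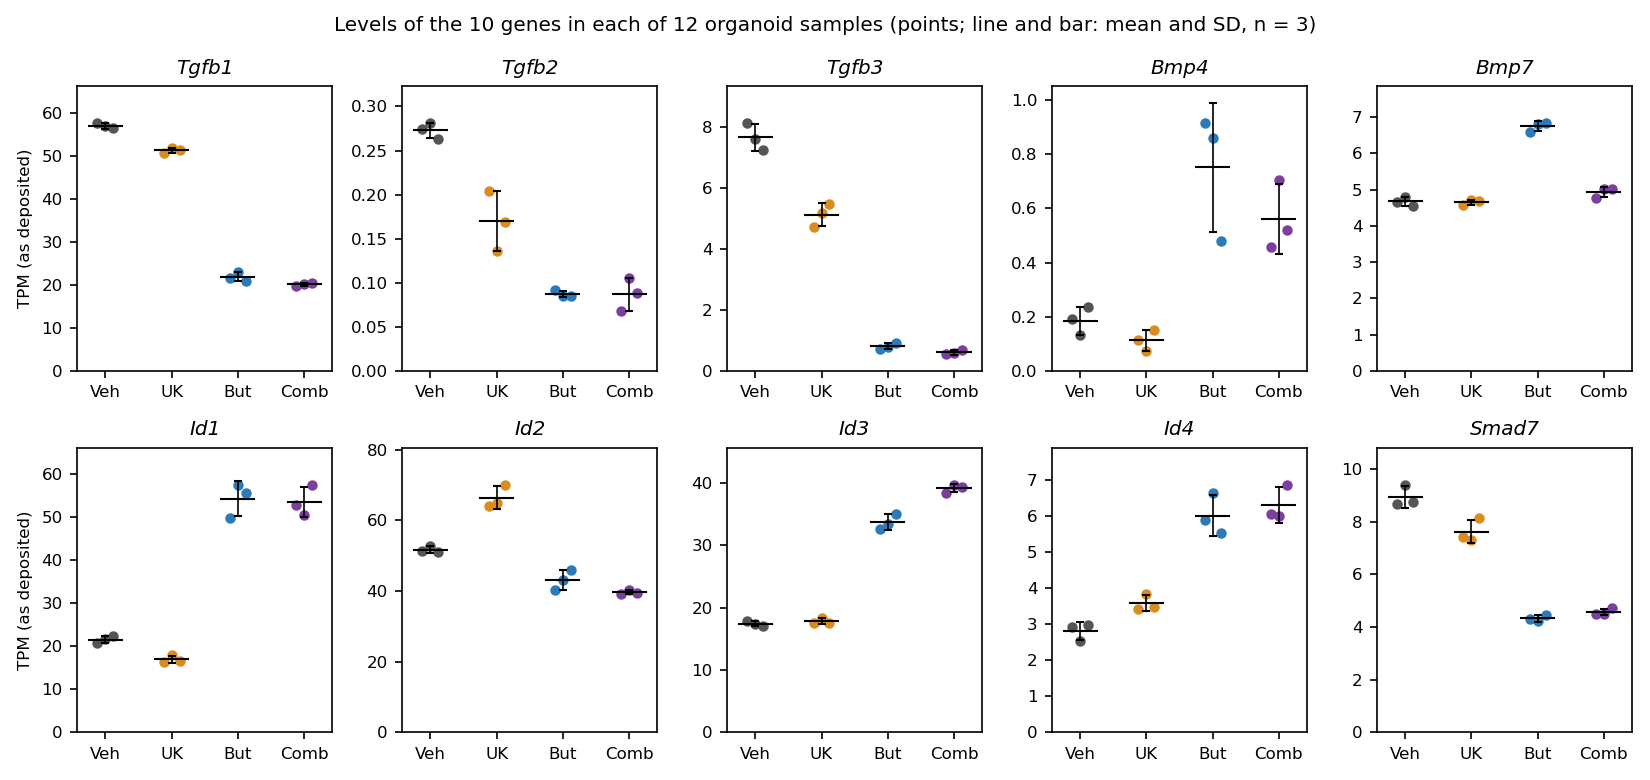
TPM as deposited (linear axis from 0) of each gene in the 12 samples, by group (Veh, vehicle; UK, UK5099; But, butyrate; Comb, combination). Points are samples, the line is the mean and the bar the SD (n = 3). With butyrate and with the combination the points for Tgfb1, Tgfb2, Tgfb3 and Smad7 lie below all vehicle points and those for Bmp4, Id1, Id3 and Id4 lie above them.

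Depth was between 33251840 and 43498956 fragments per sample. The 13345 genes averaging 1 TPM or more had a median coefficient against vehicle of -0.12, -0.30 and -0.41 for the UK5099, butyrate and combination groups on the log2(TPM + 1) scale, and within 0.01 of 0 after scaling by median of ratios, so small decreases depend on the scaling. UK5099 replicate 1 and combination replicate 1 stood apart from their replicates in the chi-square per gene of their counts, which was 6.30 to 6.65 for pairs with them and 1.93 to 2.65 for other pairs. Without both, the numbers of the 10 genes past both limits (given below) were 0, 3, 4 and 0 for UK5099, butyrate, the combination and the interaction, as with all samples. The basal markers Krt5, Krt14, Trp63 and Itga6 were present in all samples, and their summed level was 3545 to 3585 TPM in vehicle, 9805 to 10302 under UK5099, 4519 to 4709 under butyrate and 8114 to 8364 in the combination. The summed level of the luminal markers Krt8, Krt18, Krt19 and Prom1 was 4139 to 4309, 2330 to 2489, 2243 to 2283 and 1390 to 1577 TPM in the same order. These sums, and those of the other marker lists, are of TPM as deposited, where genes with a long span weigh less. The basal list did not move as a whole with butyrate. Means went from 1848 TPM in vehicle to 3152 for Krt5 and from 5.23 to 8.46 for Trp63. Krt14 went from 1676 down to 1391 TPM and Itga6 from 38.0 down to 33.1. The immune list summed to 24.0 to 25.1 TPM in vehicle and 87.0 to 97.7 in the combination, nearly all of it Cd68, while Ptprc was at 0.00163 TPM or less in each group mean. In bulk RNA fewer cells of a type and less RNA per cell cannot be told apart, and the part of the shift between these marker lists in the results below was not tested.

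Genes were tested with limma on log2(TPM + 1), with terms for UK5099, butyrate and their interaction. "Rose" and "fell" are used for a Benjamini-Hochberg adjusted p under 0.01 over all 24674 genes, and "past both limits" for genes whose coefficient was also over 1 in size on the log2(TPM + 1) scale. The 3 treated groups were compared with the same 3 vehicle samples.

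Butyrate had the larger effects of the single treatments on most of these genes. Tgfb1 and Tgfb3 fell and Id1 rose past both limits, 3 of 10 genes against 3.54% of all genes (1.13% higher and 2.42% lower). By adjusted p alone all 10 genes passed, against 45.6% of all genes. Of these 5 were higher and 5 lower, against 9.7% and 35.9% of all genes. Voom on recovered fragments put 7 genes past both limits with butyrate, against 10.5% of all genes, and 7 with the combination, against 14%. Butyrate and vehicle values did not overlap for any of the 10 genes, as was so for 60.1% of all genes. The median coefficient of the 10 genes with butyrate was 0.11, beside -0.07 for all genes and -0.30 for those averaging 1 TPM or more. It was 0.37 beside 0.01 for all genes under median of ratios and 0.45 beside 0.03 under voom. As the 10 genes moved both ways, this median does not describe either direction. With UK5099, 0 of 10 genes were past both limits, against 1.84% of all genes in limma, and voom also gave 0. At an unadjusted p under 0.05 in limma 7 genes passed, against 47.3% of all genes, and at an adjusted p under 0.01, 6 of 10 did, against 33% of all genes, of which 5 were lower and 1 higher, against 24.7% and 8.24%. This split depended on the scaling: under median of ratios 1 gene, Tgfb3, was lower and the 4 genes Bmp7, Id2, Id3 and Id4 were higher, against 13.7% and 13.6% of all genes. UK5099 and vehicle values did not overlap for 7 genes, beside 49.2% of all genes. With the combination, Tgfb1 and Tgfb3 fell and Id1 and Id3 rose past both limits, 4 of 10 genes against 6.42% of all genes (1.79% higher and 4.63% lower). By adjusted p alone 9 passed there, against 51% of all genes, and 4 of them were higher and 5 lower, against 10.1% and 40.8%. Under median of ratios 5 were higher and 4 lower in each of the groups given butyrate, against 20.5% and 17.9% of all genes with butyrate and 23.6% and 20.3% with the combination. Combination and vehicle values did not overlap for 9 genes, beside 64.7% of all genes.

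**Figure D2:**
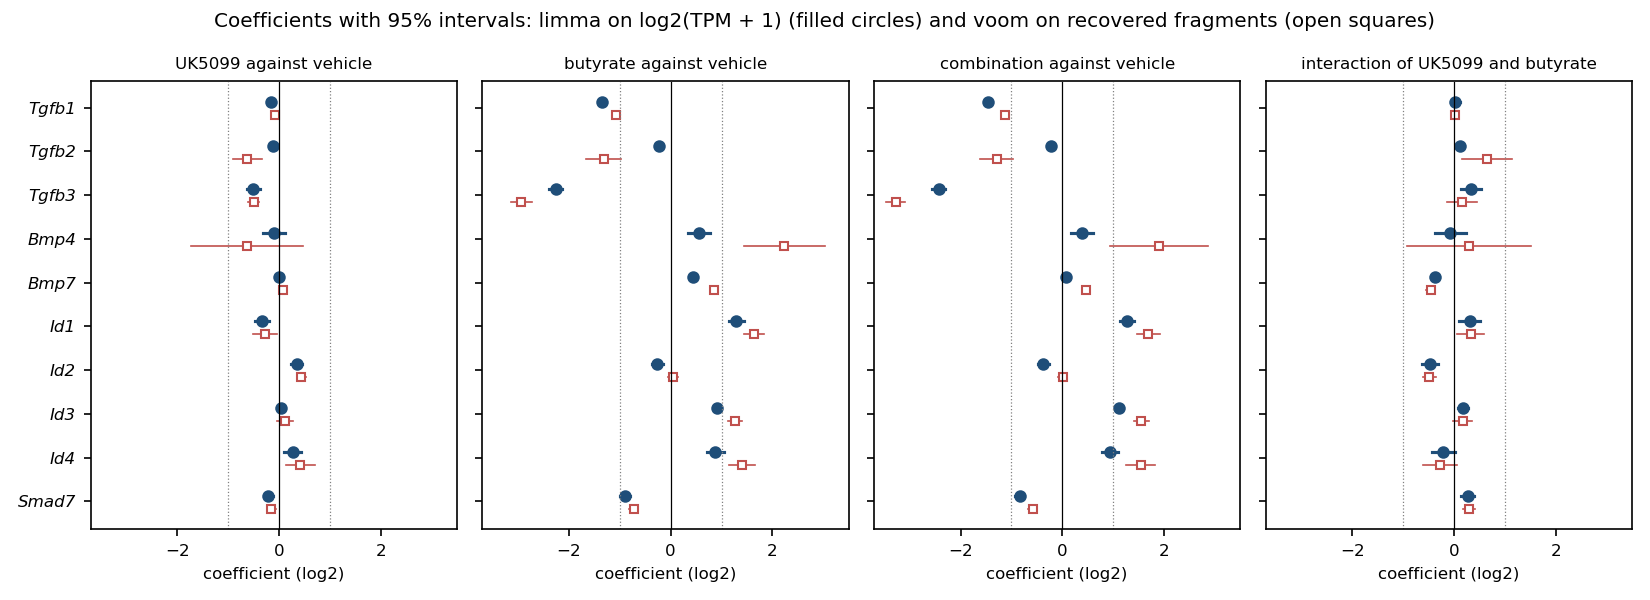
Coefficients (log2, with 95% intervals) of each gene for the 3 comparisons with vehicle and the interaction. Filled circles are limma on log2(TPM + 1), open squares voom on fragments recovered from the TPM, and dotted lines mark coefficients of -1 and 1. For Tgfb2 and Bmp4, which lie under 1 TPM, the circles sit nearer 0 than the squares (-0.23 and -1.32 for Tgfb2 with butyrate).

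Tgfb1 encodes the most widely expressed of the TGF-beta ligands (chr7:25386427-25404502, plus strand, as the table gives it, which names no genome build). Its level was 57.7, 57.0 and 56.5 TPM in the vehicle samples, 50.9, 52.0 and 51.4 with UK5099, 21.6, 23.1 and 21.1 with butyrate, and 19.7, 20.2 and 20.5 with the combination. All samples with butyrate lay below all samples without it. The mean was 2.60-fold lower with butyrate and 2.83-fold lower with the combination than in vehicle. The limma coefficients were -1.34 ± 0.0294 (SE) with butyrate (adjusted p = 8.19e-10) and -1.46 ± 0.0294 with the combination (adjusted p = 2.44e-10). Under median of ratios these were -0.99 and -0.96, so that the gene fell but was not past the limit of 1. The decrease with UK5099 was small, -0.15 ± 0.0294 (limma adjusted p = 0.00269), and vanished under median of ratios, where the coefficient was 0.00.

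Tgfb3, the TGF-beta ligand best known from palate fusion and epithelial remodelling, had the largest decrease of the set (chr12:86103519-86125815, minus strand, in the table's coordinates). It measured 8.12, 7.60 and 7.24 TPM in vehicle, 4.71, 5.18 and 5.46 with UK5099, 0.725, 0.776 and 0.912 with butyrate, and 0.553, 0.573 and 0.685 with the combination. The 4 groups did not overlap, and the order ran from vehicle through UK5099 and butyrate to the combination. The mean was 1.496-fold, 9.51-fold and 12.7-fold lower under UK5099, butyrate and the combination. The limma coefficients were -0.50 ± 0.0596 (SE, adjusted p = 9.95e-05), -2.26 ± 0.0596 (adjusted p = 2.21e-09) and -2.43 ± 0.0596 (adjusted p = 6.87e-10). Voom on recovered fragments gave -2.93 with butyrate and -3.28 with the combination. Tgfb3 overlaps Ttll5 on the opposite strand, which measured 0.794 ± 0.019, 0.500 ± 0.010, 0.381 ± 0.026 and 0.269 ± 0.025 TPM in vehicle, UK5099, butyrate and the combination (SD, n = 3). Libraries were made with strand marking, but whether the counting used strand is not given in the sources used here, so reads of the overlapping genes cannot be told apart with certainty.

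Tgfb2, a TGF-beta ligand of developing mesenchyme and epithelium, was a low transcript spread over a long gene (chr1:186354989-186438186, minus strand). The samples held 0.274, 0.281 and 0.264 TPM in vehicle, 0.204, 0.136 and 0.169 with UK5099, 0.0915, 0.0852 and 0.0851 with butyrate, and 0.0676, 0.105 and 0.0884 with the combination. In fragments this was 150 to 183 per vehicle sample and 61 to 71 per butyrate sample. Every treated sample lay below every vehicle sample, while the butyrate and combination samples overlapped. The mean was 1.61-fold lower under UK5099 and 3.13-fold lower in each of the groups given butyrate. It fell in all 3 comparisons in limma, with adjusted p = 0.00104, 7.90e-06 and 6.04e-06, but the coefficients of -0.12, -0.23 and -0.23 understate the change of a gene under 1 TPM. Voom, which has no such floor, gave -0.62 ± 0.139, -1.32 ± 0.165 and -1.29 ± 0.154 (SE).

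The BMP ligands did not follow the TGF-beta ligands. Bmp7, a ligand best known for its need in kidney and eye development (chr2:172709805-172782114, minus strand), measured 4.67, 4.81 and 4.56 TPM in vehicle and 4.57, 4.70 and 4.68 with UK5099. It measured 6.59, 6.82 and 6.84 TPM with butyrate and 4.78, 5.02 and 5.02 with the combination. The butyrate samples stood above all others, and the combination samples overlapped vehicle. The limma coefficient was 0.45 ± 0.0231 (SE) with butyrate (adjusted p = 1.36e-07), 0.06 ± 0.0231 with the combination (adjusted p = 0.0393) and -0.01 ± 0.0231 with UK5099 (adjusted p = 0.867). The combination value depended on scaling: it was 0.49 under median of ratios and 0.46 under voom, both past an adjusted p of 0.01. The sign for UK5099 turned under the same settings, to 0.11 (limma adjusted p = 0.00134) and 0.07. The interaction was -0.38 ± 0.0327 (limma adjusted p = 4.71e-05), and -0.38 under median of ratios.

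Bmp4, a BMP ligand secreted mainly by the mesenchyme around the prostatic buds in development (chr14:46620977-46628126, minus strand), was at 0.190, 0.131 and 0.235 TPM in vehicle, 0.113, 0.0730 and 0.152 with UK5099, 0.915, 0.861 and 0.479 with butyrate, and 0.457, 0.704 and 0.521 with the combination. All samples with butyrate lay above all samples without it. These levels rest on 6 to 14 fragments per vehicle sample, 4 to 9 under UK5099, 30 to 61 under butyrate and 36 to 50 in the combination. The mean ratio to vehicle was 4.06 with butyrate and 3.03 with the combination. Bmp4 rose in both, with limma coefficients of 0.56 ± 0.0964 (SE, adjusted p = 0.000746) and 0.39 ± 0.0964 (adjusted p = 0.00556) and voom coefficients of 2.23 ± 0.384 and 1.90 ± 0.467. With UK5099 the values overlapped those of vehicle, and the limma interval was -0.31 to 0.13 (95%). The overlapping gene Gm15222 on the opposite strand had 1 to 5 fragments per vehicle sample, 1 to 2 under UK5099, 13 to 19 under butyrate and 14 to 22 in the combination, and its part in the Bmp4 counts was not tested. The stromal markers Col1a1, Col1a2, Col3a1, Pdgfra, Pdgfrb, Dcn, Lum and Acta2 summed to 2.52 to 2.60 TPM in vehicle, 2.74 to 3.12 under UK5099, 10.7 to 11.04 under butyrate and 2.34 to 2.74 in the combination. Dcn, a proteoglycan gene, held 9.51 TPM of the butyrate sum, and the other 7 were each at or under 1.01 TPM in every group mean. The part of stromal cells in the Bmp4 and Bmp7 values was not tested.

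Among the targets, Id1, Id3 and Id4 were higher in all samples with butyrate than in all samples without it, and Id2 had a different pattern. Id1, a target used as a read-out of BMP signalling (chr2:152578171-152579330, plus strand), measured 20.7, 21.6 and 22.3 TPM in vehicle, 16.3, 17.9 and 16.7 with UK5099, 49.9, 57.6 and 55.6 with butyrate, and 52.8, 50.6 and 57.4 with the combination. The UK5099 samples were below vehicle, and the butyrate and combination samples overlapped each other. The ratio of means to vehicle was 2.52 with butyrate and 2.49 with the combination. The limma coefficients were 1.29 ± 0.0632 (SE, adjusted p = 9.39e-08) and 1.27 ± 0.0632 (adjusted p = 6.22e-08). With UK5099 Id1 fell by 0.33 ± 0.0632 on the log2 scale (limma adjusted p = 0.00213), the opposite direction to butyrate. Under median of ratios the coefficient was -0.18 with an adjusted p of 0.0466.

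Id3, which acts with Id1 in holding cells undifferentiated (chr4:135870808-135873066, plus strand), was at 17.8, 17.4 and 17.1 TPM in vehicle and 17.6, 18.4 and 17.6 with UK5099. It was at 32.6, 33.5 and 35.1 TPM with butyrate and 38.4, 39.7 and 39.4 with the combination. Vehicle and UK5099 overlapped, and the combination samples were above the butyrate samples. The ratio of means to vehicle was 1.93 with butyrate and 2.24 with the combination. The limma coefficient of 0.91 ± 0.0293 (SE) with butyrate (adjusted p = 6.94e-09) lay just under the limit of 1, and that of 1.12 ± 0.0293 with the combination (adjusted p = 9.69e-10) just over it. With median of ratios the butyrate coefficient was 1.26, past both limits. With UK5099 the coefficient was 0.03 ± 0.0293 (limma adjusted p = 0.468), and 0.17 under median of ratios (adjusted p = 0.000732). The interaction of 0.18 ± 0.0414 had a limma adjusted p of 0.0134, and under median of ratios it was 0.18 with an adjusted p of 0.00809.

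Id4, which in several tissues binds the other Id proteins and opposes them (chr13:48414704-48419502, plus strand), was at 2.93, 2.53 and 2.97 TPM in vehicle, 3.43, 3.83 and 3.47 with UK5099, 5.88, 6.63 and 5.52 with butyrate, and 6.05, 6.00 and 6.87 with the combination. Each treated group lay above vehicle, and butyrate and the combination overlapped. The ratio of means to vehicle was 2.14 with butyrate and 2.24 with the combination. Id4 rose in both, by 0.88 ± 0.0732 (SE, limma adjusted p = 3.92e-06) and 0.94 ± 0.0732 (adjusted p = 1.78e-06). Both were past the limit of 1 under median of ratios (1.16 and 1.35) and voom (1.40 and 1.54). The 0.27 ± 0.0732 with UK5099 had an adjusted p of 0.0155, and it was 0.37 under median of ratios (adjusted p = 0.00307). Gm49291, on the opposite strand, held at most 8.04 fragments in any sample, against 78 to 345 for Id4.

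Id2, an Id gene that TGF-beta lowers and BMPs raise in epithelial cells (chr12:25143798-25147139, minus strand), was the member that rose with UK5099. It measured 51.2, 52.8 and 51.1 TPM in vehicle, 64.0, 64.9 and 70.1 with UK5099, 40.2, 43.1 and 46.0 with butyrate, and 39.3, 40.4 and 39.4 with the combination. UK5099 samples were above all others, and butyrate and combination samples overlapped below vehicle. The ratio of means to vehicle was 1.28 with UK5099, where the coefficient was 0.35 ± 0.0479 (SE, limma adjusted p = 0.000237) and stayed positive under the other scalings. Id2 fell with butyrate, by 0.26 ± 0.0479 (limma adjusted p = 0.00115), and with the combination, by 0.37 ± 0.0479 (adjusted p = 7.77e-05), but both signs turned under median of ratios (0.10 and 0.13), quantile normalisation (0.12 and 0.10) and voom (0.05 and 0.00). The decrease of Id2 with butyrate is therefore no larger than the shift of all expressed genes in TPM. The interaction of -0.47 ± 0.0677 (limma adjusted p = 0.00104) kept its size under median of ratios, at -0.47: Id2 was higher with UK5099 than in vehicle, but in the combination it was not higher than with butyrate alone.

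Smad7 (chr18:75500600-75529006, plus strand) measured 8.68, 9.40 and 8.73 TPM in vehicle, 7.40, 7.32 and 8.12 with UK5099, 4.29, 4.23 and 4.46 with butyrate, and 4.49, 4.50 and 4.71 with the combination. Samples with butyrate lay below all others, and the combination samples lay slightly above those with butyrate alone. The mean was 2.07-fold lower with butyrate and 1.96-fold lower with the combination. The limma coefficients were -0.90 ± 0.0408 (SE, adjusted p = 5.78e-08) and -0.84 ± 0.0408 (adjusted p = 5.55e-08), and -0.58 and -0.39 under median of ratios. The decrease with UK5099 was -0.21 ± 0.0408 (limma adjusted p = 0.00254), and -0.07 with an adjusted p of 0.164 under median of ratios. Of the targets, then, Smad7 fell where Id1, Id3 and Id4 rose.

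Combination and butyrate values did not overlap for 5 of the 10 genes (Tgfb1, Tgfb3, Bmp7, Id3 and Smad7), beside 47.5% of all genes. For the interaction of UK5099 and butyrate, 0 of the 10 genes were past both limits in limma, against 1.01% of all genes, and voom also gave 0. At an unadjusted p under 0.05 in limma 7 passed, against 31.5% of all genes, and by adjusted p under 0.01 the 3 genes Bmp7, Id2 and Smad7 passed, against 13.4% of all genes. Under median of ratios Id3 passed as well (adjusted p = 0.00809). Had the single effects added on the log2(TPM + 1) scale, Bmp7 would have been at 6.71 TPM in the combination, and it was at 4.94. Id2 would have been at 55.2 TPM and was at 39.7. Smad7 would have been at 3.62 TPM and was at 4.56. The butyrate increase of Bmp7 and the UK5099 increase of Id2 were thus not seen in the combination in TPM, whereas Smad7 fell less than the sum of its single decreases.

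**Figure D3:**
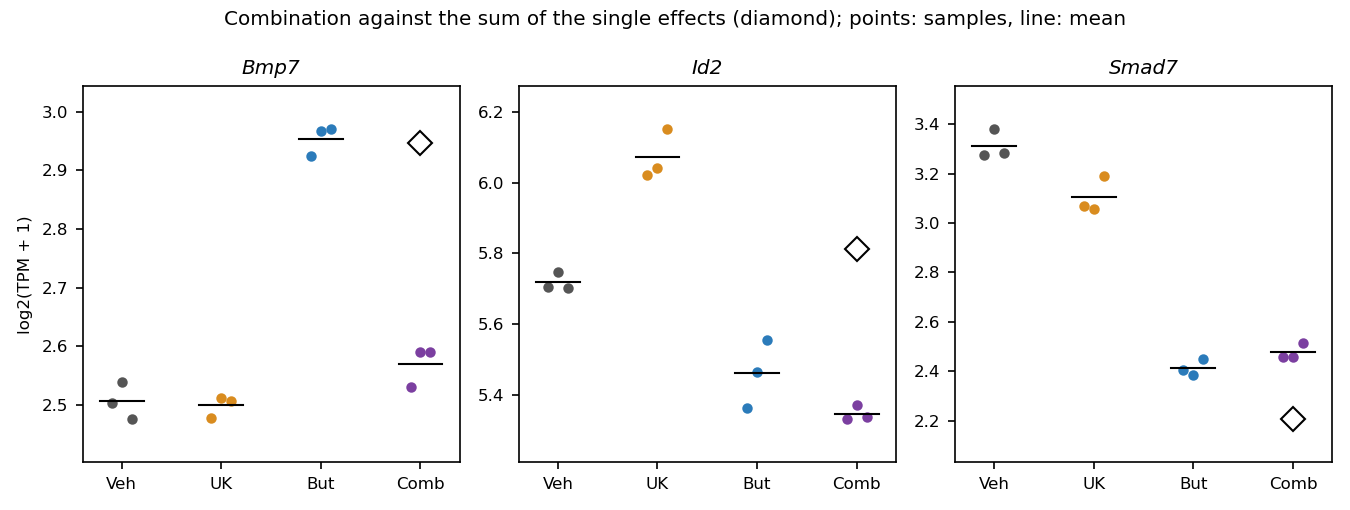
Levels on the log2(TPM + 1) scale (axes do not start at 0) of the 3 genes with an interaction at adjusted p under 0.01 in limma on TPM as deposited, by group (Veh, vehicle; UK, UK5099; But, butyrate; Comb, combination). Points are samples, lines are means and the diamond is the sum of the single effects. The combination lies below the diamond for Bmp7 (4.94 against 6.71 TPM) and Id2, and above it for Smad7.

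Promoter windows were available for 6 of the 10 genes from RefSeq (GRCm38.p6). The 250 bases before the start of Tgfb1, which fell with butyrate, and of Id4, which rose, are shown because both hold 5 copies of the GC box GGGCGG or its complement CCGCCC, the element bound by Sp1-family factors, in capitals. Tgfb1 is at chr7:25686752-25687001 and Id4 at chr13:48260866-48261115, both on the plus strand.
Tgfb1: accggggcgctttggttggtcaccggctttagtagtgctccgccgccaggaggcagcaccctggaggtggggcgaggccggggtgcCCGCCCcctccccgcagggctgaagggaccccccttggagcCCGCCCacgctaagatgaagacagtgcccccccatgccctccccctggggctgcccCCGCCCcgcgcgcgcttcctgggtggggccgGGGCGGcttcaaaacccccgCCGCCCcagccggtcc
Id4: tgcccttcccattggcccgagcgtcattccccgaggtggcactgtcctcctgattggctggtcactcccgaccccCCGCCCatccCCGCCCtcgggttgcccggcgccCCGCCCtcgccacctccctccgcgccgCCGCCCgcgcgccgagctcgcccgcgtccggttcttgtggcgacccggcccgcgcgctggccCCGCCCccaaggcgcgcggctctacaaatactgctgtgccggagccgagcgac
Of 32851 windows of the same length, 32.7% held at least 1 copy of this element on either strand, and the share with 5 copies was not counted. Both windows shown are rich in G and C, at 75.2% for Tgfb1 and 75.6% for Id4. Id3 had 2 copies, Id2 and Bmp4 had 1 each and Tgfb2 had 0, and a link between the number of copies and the changes was not tested. GGCGCC, searched on both strands, was in the windows of Id2 and Id4 and in 9.59% of all windows, and TATAAA, also on both strands, was in that of Tgfb2 and in 12.4% of all. A match of letters is not a bound site.

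The other 70 genes of the pathway in the table were grouped by role. Against vehicle, 2 were past both limits with UK5099 (1 higher, 1 lower), beside 1.84% of all genes. There were 11 with butyrate (2 higher, 9 lower), beside 3.54%, and 16 with the combination (4 higher, 12 lower), beside 6.42%. By adjusted p alone, 38 fell and 8 rose with butyrate, beside 35.9% and 9.7% of all genes, and under median of ratios 29 fell and 12 rose, beside 17.9% and 20.5%. Their median coefficient with butyrate was -0.27, beside -0.07 for all genes and -0.30 for the genes averaging 1 TPM or more. After median of ratios it was -0.01, beside 0.01 for all genes. Gdf5, Gdf7, Nodal, Mstn, Chrdl2, Sostdc1, Lefty2 and Atoh8 were not analysed here.

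Among 11 other ligands, 1 rose and 1 fell past both limits with butyrate, where 1.13% and 2.42% of all genes did. Under median of ratios 2 rose and 1 fell past both limits, for which the share of all genes was not counted. Inhba, the subunit of activin A, fell most: its mean was 168 TPM in vehicle, 109 under UK5099, 10.1 under butyrate and 20.6 in the combination, with a butyrate coefficient of -3.93 ± 0.0668 (SE, limma adjusted p = 2.16e-10). Bmp3, a BMP that opposes other BMPs, rose from 0.329 TPM to 2.11 with butyrate and 2.23 with the combination. Gdf11, a ligand of the activin branch, rose from 1.73 to 3.68 TPM with butyrate and 5.82 with the combination.

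Of 10 genes for latency and activation of TGF-beta, 8 fell with butyrate by adjusted p, where 35.9% of all genes did, and 3 of them past both limits, where 2.42% did. The median coefficient of the 10 genes was -0.64. Under median of ratios 7 fell and 1 rose, where 17.9% and 20.5% of all genes did, with a median of -0.47. Thbs1, a matrix protein that activates latent TGF-beta, had means of 323, 205, 65.0 and 40.7 TPM in vehicle, UK5099, butyrate and the combination. Itgb6, the beta subunit of the integrin that releases TGF-beta on epithelial cells, had 7.46, 5.58, 1.96 and 2.12 TPM in that order. Bmp1, a protease that cleaves the latent complex and procollagen, had 13.2, 9.10, 4.64 and 3.74 TPM. All 3 were lower in each treated group (limma adjusted p at most 1.82e-05).

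Of 10 intracellular inhibitors, 9 fell with butyrate by adjusted p, where 35.9% of all genes did, and 3 of them past both limits, where 2.42% did. The median coefficient was -0.67. Under median of ratios 7 fell, where 17.9% of all genes did, with a median of -0.36. Of these, 2 were past both limits, for which the share of all genes was not counted under that scaling. Pmepa1, a TGF-beta target that binds receptor Smads, had means of 37.5, 27.2, 5.19 and 6.69 TPM in vehicle, UK5099, butyrate and the combination. Skil, a Smad corepressor that TGF-beta induces, had 51.2, 40.4, 17.7 and 15.5 TPM. Tgif1, another Smad corepressor, had 196, 145, 87.4 and 75.0 TPM, and under median of ratios its coefficients of -0.79 with butyrate and -0.86 with the combination were not past the limit of 1. Smad7, with its decrease to 4.33 TPM under butyrate, moved as these did. Of 11 extracellular inhibitors, 3 passed by adjusted p with butyrate, 1 higher and 2 lower, where 9.7% and 35.9% of all genes did. Nbl1, a secreted BMP antagonist, rose past both limits with the combination, from 6.47 TPM in vehicle to 18.6.

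In the remaining roles too, the counts by adjusted p with butyrate stand beside 35.9% of all genes lower and 9.7% higher. Those under median of ratios stand beside 17.9% lower and 20.5% higher. Of 6 signalling Smads, 5 fell, 2 of them still under median of ratios, and Smad3, the main transcriptional effector of TGF-beta, fell past both limits, from 13.6 TPM to 5.82. Under median of ratios Smad3 still fell, but at -0.77 with butyrate and -0.73 with the combination it was not past the limit of 1. Of 13 receptors, 6 fell and 2 rose, or 5 and 4 under median of ratios, and Tgfbr1, the type I TGF-beta receptor, fell past both limits with the combination, from 6.04 TPM to 2.38. That call was lost under median of ratios, at -0.65. Among 6 other targets, Ccn2, a matricellular target of TGF-beta and of YAP, fell past both limits in all 3 comparisons and measured 259, 85.1, 92.6 and 32.9 TPM in vehicle, UK5099, butyrate and the combination. Tgfbi, a secreted matrix protein named for its induction by TGF-beta, went the other way, with 0.956, 10.9, 7.65 and 20.8 TPM, and rose past both limits in all 3 comparisons. The E proteins that Id proteins bind fell with butyrate in 3 of 3 cases, also under median of ratios. Tcf3 was at 22.1, 14.95, 12.5 and 9.41 TPM, and its coefficient with the combination was -1.15 and, under median of ratios, -0.67.

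**Figure D4:**
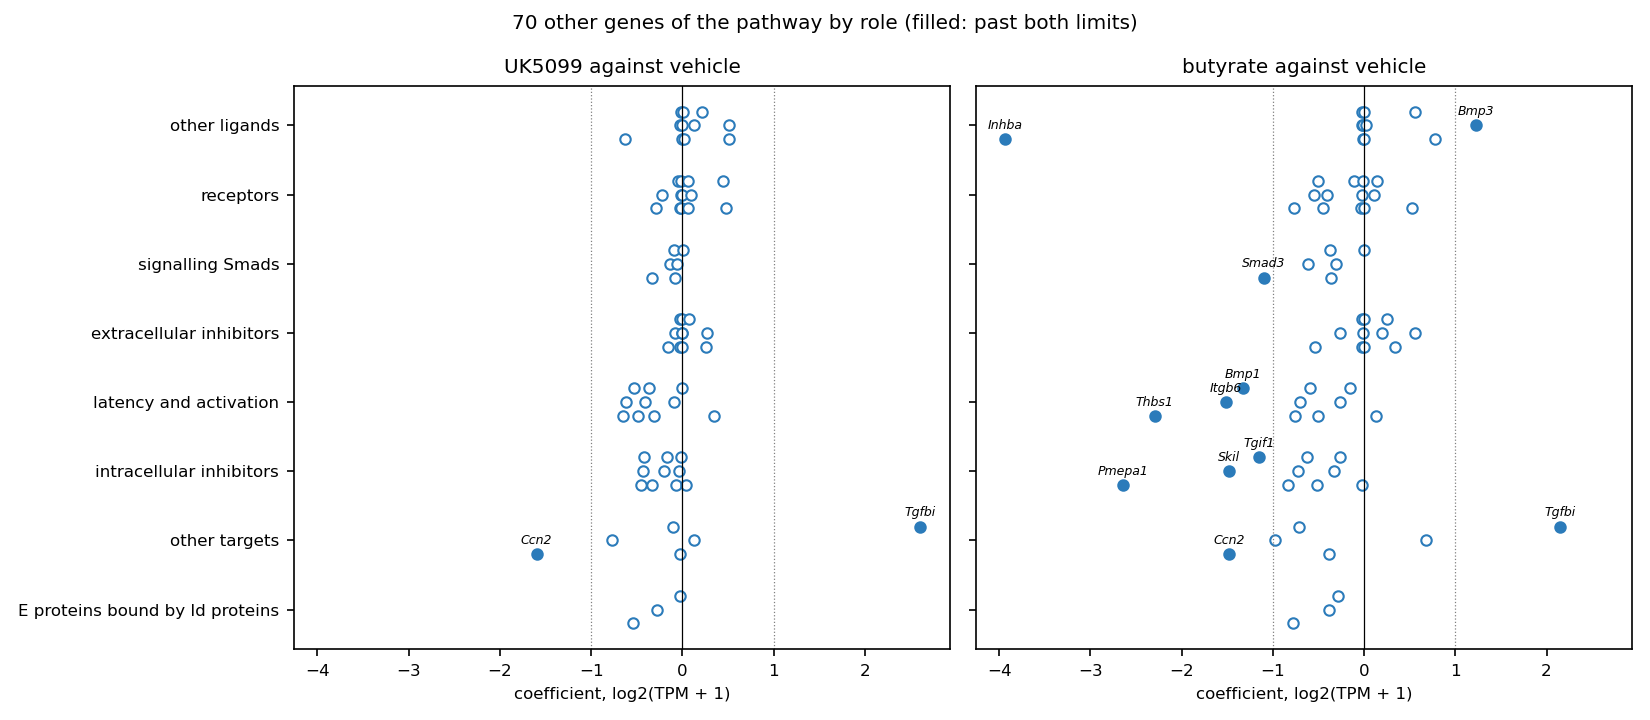
Coefficients on the log2(TPM + 1) scale of the 70 other pathway genes by role, for UK5099 (left) and butyrate (right) against vehicle. Each point is a gene, filled and named where past both limits. With UK5099 Ccn2 and Tgfbi are filled, and with butyrate 9 of the 11 filled points are on the lower side, with Inhba farthest out at -3.93.

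Over the 12 samples, the 2 protein-coding genes whose levels were most like each of the 8 members with a group mean of at least 1 TPM were found by Pearson's r on the log2(TPM + 1) scale among 6948 genes. The samples share 4 treatments, so these values describe the group pattern and carry no p. Tgfb3 was most like Vasp, an actin regulator (r = 0.999), and Gcnt2 (r = 0.999). Tgfb1 was most like Mgat1, an enzyme of N-glycan synthesis (r = 0.998), and Rad23b (r = 0.998). Id1 was most like Ngfr, the p75 neurotrophin receptor that also marks basal cells (r = 0.994), and Prdx6 (r = 0.993). Id3 was most like Slc16a1, a plasma membrane transporter of lactate, pyruvate and butyrate (r = 0.997). Id2, which was highest with UK5099, was most like Ldha, the lactate dehydrogenase subunit that converts pyruvate to lactate (r = 0.986), and Mxi1 (r = 0.983). Bmp7, highest with butyrate alone, was most like Dcn (r = 0.985) and Rpl36al (r = 0.982). Id4 was most like Galnt6 (r = 0.981) and Fgfr3 (r = 0.979), and Smad7 like Nfe2l1 (r = 0.996).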

How the data were processed

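RNA from 12 mouse organoid cultures was sequenced as read pairs. Per the labels, ribosomal RNA was depleted, mRNA enriched and strand marked with dUTP, whereas the methods name another kit. The authors deposited TPM for 24674 genes. The methods give fastp, STAR, RSEM and GRCm38, and the submitters' processing notes name Partek, STAR 2.7.9a and GRCm39. The table names no build, and its nuclear positions were those of GENCODE GRCm38 in 2.08% of genes, so coordinates are printed as listed and sequences carry their own build. The length in the table was the genomic span in 100% of genes, which lowers TPM of long genes. The steps of low values gave the worth of 1 fragment and so 33251840 to 43498956 fragments per sample; with a tolerance of 0.02, 59.0% to 61.3% of values above 0 and 66.2% to 67.5% of those under 1000 fragments were whole, and the rest were fractional.

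Groups came from sample titles. Values were fitted with limma on log2(TPM + 1), all 12 samples and an interaction term, following the methods; the pseudocount of 1 was chosen here. Alternatives were pseudocounts of 0.1 and 0.01, a filter at 1 TPM, median of ratios, quantile normalisation, nuclear protein-coding genes rescaled, exonic length (23913 genes), voom on recovered fragments with total fragments as library size, a trended robust prior, a replicate block, fits of 6 samples, each sample left out, and adjusted p alone. The members and gene lists were chosen with earlier results of these data known. Named pathway genes were up to 3 per role with the largest coefficients past both limits in any comparison with vehicle and a group mean of at least 1 TPM. For likeness, candidates had a group mean of at least 5 TPM. Of the genes so found, 1 each for Id3 and Smad7 is not reported here.

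All replicate pairs differed by more than counting noise and were counted separately. On simulated fragments for 24674 genes, 100 of 200 UK5099 and 96 of 200 butyrate changes were recovered, and 60 of 60 and 56 of 58 of those at 4 TPM or more. Counts by role under median of ratios were added after the data were seen. Models ran in limma 3.58.1 under R 4.3.3, and tables and plots used pandas 2.3.3, numpy 2.4.6 and matplotlib 3.10.9 under Python 3.11.15.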

Additional observations from a re-analysis of the deposited data

Results flagged for a closer look

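For 13 of the genes named, the effect of UK5099 differed between cultures with and without butyrate, by the interaction term of the limma fit at an adjusted p under 0.01. By that limit 3 of the 10 members and 24 of the 70 other pathway genes passed, beside 13.4% of all genes. The other pathway genes among the 13 had been named for their large coefficients against vehicle, so the count of 13 is not comparable with that share. Of the ligands and targets, the interaction was -0.38 for Bmp7 (adjusted p = 4.71e-05), -0.47 for Id2 (adjusted p = 0.00104) and 0.27 for Smad7 (adjusted p = 0.00905). Of the other pathway genes, Inhba had 1.58 and measured 20.5 TPM (geometric mean) in the combination, where the sum of the single effects gave 6.18. Pmepa1 had 0.76, with 6.69 TPM against 3.54 for the sum, and Tgfbi had -1.28, with 20.7 TPM against 51.8. The interaction was 0.58 for Nbl1, 0.44 for Itgb6, 0.25 for Smad3, 0.24 for Bmp1, 0.21 for Tgif1 and 0.16 for Tcf3, and -0.46 for Bmp3.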

How the results depend on the processing

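Of the alternatives for single genes, 1464 values kept their direction and side of the limits, 33 passed both limits newly, 16 no longer did and 19 turned sign. Members past both limits with butyrate numbered 3, and were 6 with a pseudocount of 0.1, 7 with 0.01, 6 with nuclear protein-coding genes, 7 with voom and 10 by adjusted p alone. With the combination they numbered 4, and were 7, 7 and 9 with a pseudocount of 0.01, voom and adjusted p alone. By adjusted p alone 6 members passed with UK5099 and 3 for the interaction. Of the other pathway genes, pseudocounts of 0.1 and 0.01 and adjusted p alone gave 5, 5 and 35 with UK5099, 18, 19 and 46 with butyrate, 25, 27 and 50 with the combination, and 6, 8 and 24 for the interaction; voom gave 6 with UK5099 and 8 for the interaction. Dropping a limit cannot lower these counts, and for the other alternatives the cause of the change was not tested. The share of all genes was not counted for the smaller pseudocounts or the protein-coding rescaling. Nor was it counted for voom with UK5099 and the interaction. Counts under those settings thus cannot be set against all genes.

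Signs turned under these alternatives. Id2 with butyrate was 0.10 (median of ratios), 0.12 (quantile) and 0.051 (voom), and with the combination 0.13, 0.098 and 0.0047. Tgfb1 with UK5099 was 0.0014 under median of ratios, and its interaction was -0.0096 after quantile normalisation. The Bmp4 interaction was 0.081 and 0.30 with pseudocounts of 0.1 and 0.01, and 0.30 with voom. Bmp7 with UK5099 was 0.11 (median of ratios), 0.096 (quantile), 0.0016 (protein-coding), 0.012 (exonic length), 0.073 (voom) and 0.0032 without both libraries that stood apart, and ranged from -0.023 to 0.0092 when each sample was left out. Replicate numbers did not pair the samples: of 18 pairs with the same number, 0 had deviations correlated over 0.1. With the replicate number as a block, 3 members passed both limits with butyrate and 4 with the combination, and no call of a member or named pathway gene changed. Tgfb2 and Bmp4 have no value under the filter at 1 TPM. With 4 to 14 fragments per sample, depth limits Bmp4 in vehicle and UK5099.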
